A study of Mus musculus with 12 samples.

Results

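The genes described here are 9 monocyte and macrophage genes of the mouse, Ccl2, Ccr2, Cx3cr1, Marco, Wfdc17, Chil3, Igf1, Lgals1 and Vcan, measured by RNA sequencing in CD31+ cells of the lung. They were picked by name from 4 deposited comparison tables, which together list 9338 genes, and each gene appears only in the tables where the authors' unadjusted p-value was under 0.05. The measured values therefore chose the members, and the differences between groups are given as a description. Counts of members that pass a test are printed beside the share of all listed genes that pass it, except in some alternative fits. Nothing is read from these counts. All 12 mice were males that carried TET2 fl/fl alleles on a C57Bl/6J background, and all were given tamoxifen (40 mg/kg on 3 days) when 6 to 8 weeks old. TET2 KO mice also carried Cdh5-CreERT2, a Cre recombinase that tamoxifen activates and that an endothelial promoter drives, whereas WT mice lacked the Cre. From 1 week after tamoxifen, mice ate standard chow, with 13% of energy as fat, or a high-fat diet (HFD), with 60%, for 20 weeks. This gave 4 groups of 3 mice, WT chow, TET2 KO chow, WT HFD and TET2 KO HFD, with 1 library for each mouse. Cells were released from lung tissue by enzyme digestion and taken up with anti-CD31 microbeads. CD31 is also found on leukocytes, so the selection enriches endothelial cells without purifying them, and cells in which the Cdh5 promoter is silent keep their Tet2.

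Monocytes leave the bone marrow and patrol or enter tissue under the control of chemokine receptors. Classical monocytes carry CCR2 and follow its ligand CCL2, whereas non-classical monocytes carry high CX3CR1 and crawl along the vessel wall. The lung also holds alveolar macrophages, long-lived cells of the airspace that take up surfactant and particles and express the scavenger receptor MARCO and the chitinase-like protein CHIL3 (Ym1), and interstitial macrophages, which are rich in complement C1q. Igf1, Lgals1 and Vcan are used by macrophages and monocytes but also by fibroblasts and other stromal cells, so their transcripts do not mark a single cell type.

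The reads assigned to genes numbered 36.7 to 56.8 M in a library (median 39.6 M). Levels are given as FPKM, which divides fragments by gene length and library total. Rows for all 12 libraries were at hand for 5 members, Ccr2, Marco, Wfdc17, Chil3 and Igf1, and for 975 genes in all. Cx3cr1 had no row that covers TET2 KO HFD, Ccl2 and Vcan none that covers WT chow, and Lgals1 had values in the TET2 KO groups only. Tet2 itself had a row only for HFD against chow in WT, at 4.73, 5.18 and 5.15 FPKM on chow and 6.07, 6.32 and 6.71 FPKM on HFD, and Tet2 levels of TET2 KO mice were not analysed here. In each group some genes stood apart in a single library. Among 5101 genes with values in WT HFD and a mean of at least 1 FPKM, 38 reached at least 3 times the higher of the other two libraries there, against 1 gene in the first and 0 in the second WT HFD library. The first TET2 KO chow library was as high for 20 of 1697 genes, and the third TET2 KO HFD library was at least as far below its group for 44 of 3384 genes, which are larger shares (1.18% and 1.30%) than in the third WT HFD library (0.745%). The complement genes C1qa, C1qb and C1qc, which mark interstitial macrophages, were at 166, 249 and 129 FPKM in the third WT HFD library and at no more than 20.8, 19.5 and 8.59 FPKM in the other two. Named members and genes whose call ended without the third WT HFD library are given with and without it.

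The promoters of the 5 members with values in all 12 libraries are shown first. They run from 250 bases before to 30 bases after the RefSeq start on GRCm38.p6, read 5′ to 3′ on the strand of the gene. Entries matched 7 of the 9 members, and Ccl2 and Lgals1 had none. Chil3, Marco and Igf1 were lower on average on HFD in both genotypes. Ccr2 and Wfdc17 were higher in TET2 KO chow than in WT chow, and Ccr2 was lower in TET2 KO HFD than in WT HFD. For Wfdc17 the 2 HFD groups overlapped. Its log2 fold change between them was -2.31 with the third WT HFD library and -0.33 without it. Capitals mark matches, on either strand, to the letters GAGGAA (the core of sites of PU.1, the myeloid ETS factor), TATAAA (the TATA box) or TGANTCA. The last is a loose form of the AP-1 site, with any base at N. None of the matches overlap here. The Chil3 promoter lies at chr3:106167535-106167814 on the minus strand, that of Marco at chr1:120504995-120505274 on the minus strand, and that of Igf1 at chr10:87860861-87861140 on the plus strand. The windows of Ccr2 at chr9:124101933-124102212 and Wfdc17 at chr11:83703806-83704085 are on the plus strand.
Chil3: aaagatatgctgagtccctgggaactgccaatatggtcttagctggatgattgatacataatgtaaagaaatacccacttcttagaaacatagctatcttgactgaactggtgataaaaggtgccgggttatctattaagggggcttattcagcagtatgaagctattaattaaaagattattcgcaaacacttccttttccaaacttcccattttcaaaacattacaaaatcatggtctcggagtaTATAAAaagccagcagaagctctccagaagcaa
Marco: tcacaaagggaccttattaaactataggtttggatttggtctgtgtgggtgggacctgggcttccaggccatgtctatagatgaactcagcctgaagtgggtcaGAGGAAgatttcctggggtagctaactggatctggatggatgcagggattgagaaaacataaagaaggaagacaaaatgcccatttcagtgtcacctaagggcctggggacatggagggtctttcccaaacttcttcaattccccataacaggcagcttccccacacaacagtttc
Igf1: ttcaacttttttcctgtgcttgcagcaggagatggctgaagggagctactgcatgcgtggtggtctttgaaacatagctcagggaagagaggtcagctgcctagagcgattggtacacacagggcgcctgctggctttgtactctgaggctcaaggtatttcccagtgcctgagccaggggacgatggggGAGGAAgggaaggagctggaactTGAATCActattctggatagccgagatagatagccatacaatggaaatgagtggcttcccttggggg
Ccr2: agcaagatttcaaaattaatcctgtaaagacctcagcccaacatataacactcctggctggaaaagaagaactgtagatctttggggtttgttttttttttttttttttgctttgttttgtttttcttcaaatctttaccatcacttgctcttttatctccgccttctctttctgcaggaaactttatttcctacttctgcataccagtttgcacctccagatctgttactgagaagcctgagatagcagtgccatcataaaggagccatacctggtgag
Wfdc17: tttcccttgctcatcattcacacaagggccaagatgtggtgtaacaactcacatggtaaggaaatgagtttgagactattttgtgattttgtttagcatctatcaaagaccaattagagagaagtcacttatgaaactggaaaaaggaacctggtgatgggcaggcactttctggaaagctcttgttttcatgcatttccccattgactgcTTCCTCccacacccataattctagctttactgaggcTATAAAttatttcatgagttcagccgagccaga
GAGGAA was present in 3 of the 7 windows, those of Marco, Igf1 and Wfdc17, and in 26% of all 32851 RefSeq promoters of this length. TATAAA was present in those of Chil3 and Wfdc17, in both across the annotated start (bases -3 to 3), and in 13.1% of all promoters. TGANTCA was found in the Igf1 window alone of the 7, as TGAATCA (bases -37 to -31), and in 7.46% of all promoters. Whether AP-1 binds there was not tested. The interferon-stimulated response element was in none of the 7 and in 3.28% of all promoters. The windows of Ccr2, Cx3cr1 and Vcan held none of these letters. The members are spread over the genome, except that Cx3cr1 and Ccr2 lie 4.03 Mb apart on chromosome 9 and Ccl2 and Wfdc17 lie 1.67 Mb apart on chromosome 11.

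**Figure D1:**
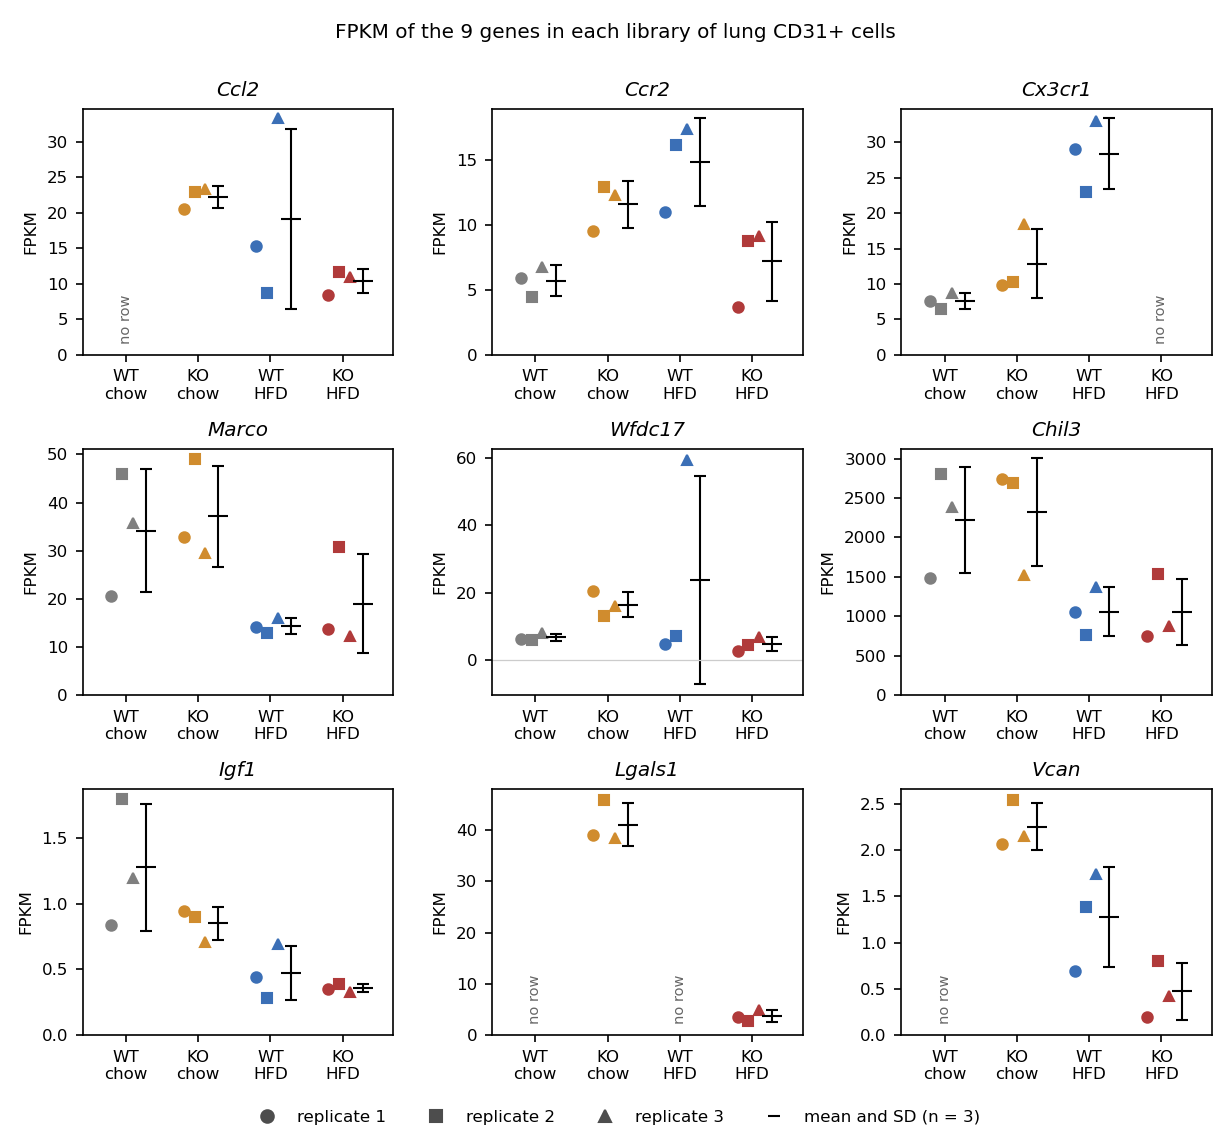
Each panel plots the FPKM (vertical axis, linear, from each panel's own scale) of 1 gene in each of 3 libraries of WT chow, TET2 KO chow, WT HFD and TET2 KO HFD, with symbols for replicates and a bar for mean and SD (n = 3). Groups marked "no row" have no value of that gene here; the third WT HFD library holds the highest Wfdc17 (59.2 FPKM) and Ccl2 (33.3 FPKM) values, and the SD of Wfdc17 in WT HFD exceeds its mean.

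Ccl2 (ENSMUSG00000035385, chromosome 11, 82035571 to 82037453, plus strand) encodes the chemokine that draws CCR2-bearing monocytes out of the blood. Its level was 20.5, 22.9 and 23.3 FPKM in TET2 KO chow and 8.47, 11.6 and 11.0 FPKM in TET2 KO HFD. The 2 groups did not overlap, and Ccl2 was 2.15-fold lower on HFD (log2 fold change -1.10, SE 0.19). WT HFD libraries held 15.3, 8.75 and 33.3 FPKM, a 3.80-fold spread that reached from the TET2 KO HFD range to above the TET2 KO chow range. From high to low, the means were those of TET2 KO chow (22.3 ± 1.53, SD, n = 3), WT HFD (19.1 ± 12.7) and TET2 KO HFD (10.4 ± 1.66), and neither pair of neighbours in this order was separated beyond its spread. The log2 fold change between TET2 KO HFD and WT HFD was -0.88 (SE 0.44), and without the third WT HFD library it was -0.22. On the opposite strand the annotation holds the gene Gm17268 over Ccl2, and whether counting used the strand is not stated.

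Ccr2 (ENSMUSG00000049103, chromosome 9, 124101950 to 124113557, plus strand) encodes the receptor for CCL2. It was lowest on average in WT chow, at 5.95, 4.42 and 6.79 FPKM, and higher in TET2 KO chow, at 9.55, 12.9 and 12.3 FPKM. In WT HFD it was at 11.0, 16.2 and 17.4 FPKM and in TET2 KO HFD at 3.65, 8.76 and 9.16 FPKM. The genotypes were thus ordered one way on chow and the other way on HFD, and in neither diet did their libraries overlap. On chow Ccr2 was 2.02-fold higher in TET2 KO (log2 fold change 1.01, SE 0.20) and on HFD 2.06-fold lower (-1.05, SE 0.35). HFD went with 2.60-fold more Ccr2 in WT (1.38, SE 0.23) and with 1.61-fold less in TET2 KO (-0.69, SE 0.33). These 4 differences share groups with each other and are not separate observations. From low to high, the means were those of WT chow (5.72 ± 1.20), TET2 KO HFD (7.19 ± 3.07), TET2 KO chow (11.6 ± 1.79) and WT HFD (14.9 ± 3.36). WT chow overlapped TET2 KO HFD and TET2 KO chow overlapped WT HFD, whereas the pairs across the middle of this order did not overlap. The genotype difference on HFD ranged from -1.25 to -0.73 as each library was left out. Without the third WT HFD library it was -0.92 (SE 0.40) and did not pass an unadjusted p under 0.05.

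Cx3cr1 (ENSMUSG00000052336, chromosome 9, 119901616 to 120069879, minus strand) encodes the fractalkine receptor of non-classical monocytes, also found on other mononuclear phagocytes and NK cells. It was at 7.65, 6.51 and 8.72 FPKM in WT chow, at 9.80, 10.3 and 18.5 FPKM in TET2 KO chow, and at 29.1, 23.0 and 33.0 FPKM in WT HFD. All 3 groups were separate, in the order WT chow (7.63 ± 1.11), TET2 KO chow (12.9 ± 4.88) and WT HFD (28.4 ± 5.02). In WT it was 3.73-fold higher on HFD (log2 fold change 1.90, SE 0.18), a larger difference than for any other member in that comparison. On chow it was 1.69-fold higher in TET2 KO (0.75, SE 0.27), and 0.40 without the third TET2 KO chow library. The deposited span of Cx3cr1 covers other genes on both strands, among them Gorasp1, Csrnp1, Xirp1 and Ttc21a, so part of its reads may not be its own.

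Marco (ENSMUSG00000026390, chromosome 1, 120474538 to 120505024, minus strand) encodes a class A scavenger receptor of alveolar macrophages that binds bacteria and inhaled particles. WT chow libraries held 20.7, 46.0 and 35.8 FPKM and WT HFD libraries 14.1, 12.8 and 16.1 FPKM. Every WT chow library was above every WT HFD library, and Marco was 2.37-fold lower on HFD (log2 fold change -1.25, SE 0.28). TET2 KO chow held 32.9, 49.1 and 29.5 FPKM and TET2 KO HFD 13.8, 30.8 and 12.3 FPKM. Here the second TET2 KO HFD library lay within the chow range, and the difference was -0.97 (SE 0.37), or -1.51 without that library. The groups overlapped between genotypes on either diet, with 34.2 ± 12.8 and 37.2 ± 10.5 FPKM on chow and 14.3 ± 1.64 and 19.0 ± 10.3 FPKM on HFD in WT and TET2 KO.

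Chil3 (ENSMUSG00000040809, chromosome 3, 106147554 to 106167564, minus strand) encodes Ym1, a secreted chitinase-like lectin that alveolar macrophages make in very large amounts. It was by far the most abundant member, with 0.122% to 0.457% of all reads on genes. WT chow libraries held 1489, 2802 and 2382 FPKM and WT HFD libraries 1048, 756 and 1370 FPKM. The ranges were separate by a narrow margin, and Chil3 was 2.09-fold lower on HFD (log2 fold change -1.07, SE 0.30). TET2 KO chow held 2741, 2687 and 1527 FPKM and TET2 KO HFD 745, 1530 and 873 FPKM. The third TET2 KO chow library and the second TET2 KO HFD library were level with each other, and the difference was 2.21-fold (-1.14, SE 0.34). Genotype made little difference to the means, 2224 ± 670 in WT and 2318 ± 686 in TET2 KO on chow and 1058 ± 307 and 1049 ± 421 on HFD. Chil3 has a close paralogue, Chil4, and how the counting divided reads that fit both is not stated.

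Wfdc17 (ENSMUSG00000069792, chromosome 11, 83703991 to 83706268, plus strand) encodes a small secreted WAP-domain protein of activated macrophages. It was at 6.29, 6.08 and 7.99 FPKM in WT chow and at 20.5, 13.0 and 15.9 FPKM in TET2 KO chow. No library of the first group reached the second, and Wfdc17 was 2.43-fold higher in TET2 KO (log2 fold change 1.28, SE 0.24). In TET2 KO HFD it was at 2.77, 4.68 and 6.94 FPKM, all below TET2 KO chow, 3.43-fold lower (-1.78, SE 0.35). In WT HFD it was at 4.92, 7.16 and 59.2 FPKM. The third library was 8.27 times the next and carried the group mean of 23.8 ± 30.7 FPKM. The log2 fold change between TET2 KO HFD and WT HFD was -2.31 (SE 0.94) with that library and -0.33 without it. By their medians, 6.29, 15.9, 7.16 and 4.68 FPKM in WT chow, TET2 KO chow, WT HFD and TET2 KO HFD, TET2 KO chow was the highest group. WT HFD overlapped each of the other groups, and WT chow overlapped TET2 KO HFD.

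Igf1 (ENSMUSG00000020053, chromosome 10, 87858265 to 87937042, plus strand) encodes insulin-like growth factor 1, which macrophages and mesenchymal cells release in tissue. It was a low transcript here. WT chow libraries held 0.841, 1.80 and 1.19 FPKM and TET2 KO chow libraries 0.944, 0.899 and 0.707 FPKM. WT HFD libraries held 0.441, 0.283 and 0.695 FPKM and TET2 KO HFD libraries 0.349, 0.390 and 0.331 FPKM. Every chow library of either genotype was above every HFD library, and on each diet the genotypes overlapped. Igf1 was 2.68-fold lower on HFD in WT (log2 fold change -1.42, SE 0.39) and 2.38-fold lower in TET2 KO (-1.25, SE 0.20). The reads behind these values numbered 365 to 653 in WT chow and 125 to 152 in TET2 KO HFD. The antisense gene Igf1os overlaps Igf1.

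Lgals1 (ENSMUSG00000068220, chromosome 15, 78926725 to 78930465, plus strand) encodes galectin-1, a lectin of monocytes, macrophages and stromal cells that binds galactose-bearing glycans. It was at 39.0, 45.9 and 38.4 FPKM in TET2 KO chow and at 3.51, 2.79 and 4.97 FPKM in TET2 KO HFD. The lowest chow library was several times the highest HFD library, and the difference was 10.9-fold (log2 fold change -3.45, SE 0.26), larger than that of any other member in any comparison. It ranged from -3.70 to -3.27 as each library was left out. Its level in the WT groups was not analysed here.

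Vcan (ENSMUSG00000021614, chromosome 13, 89655312 to 89742509, minus strand) encodes versican, a hyaluronan-binding proteoglycan of the matrix that classical monocytes also express strongly. It was at 2.07, 2.54 and 2.16 FPKM in TET2 KO chow, at 0.688, 1.39 and 1.75 FPKM in WT HFD and at 0.193, 0.806 and 0.423 FPKM in TET2 KO HFD. TET2 KO chow was above every library of both HFD groups, while the HFD groups overlapped. Vcan was 4.76-fold lower on HFD than on chow in TET2 KO (log2 fold change -2.25, SE 0.46). On HFD it was lower in TET2 KO than in WT by a log2 fold change of -1.43 (SE 0.53), with a range of -2.05 to -1.05 as each library was left out. Without the third WT HFD library this difference was -1.13 (SE 0.56) and did not pass an unadjusted p under 0.05. From high to low, the means were those of TET2 KO chow (2.26 ± 0.253), WT HFD (1.27 ± 0.538) and TET2 KO HFD (0.474 ± 0.309). An antisense gene, Gm4117, and a pseudogene, Gm16318, overlap Vcan on the other strand.

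**Figure D2:**
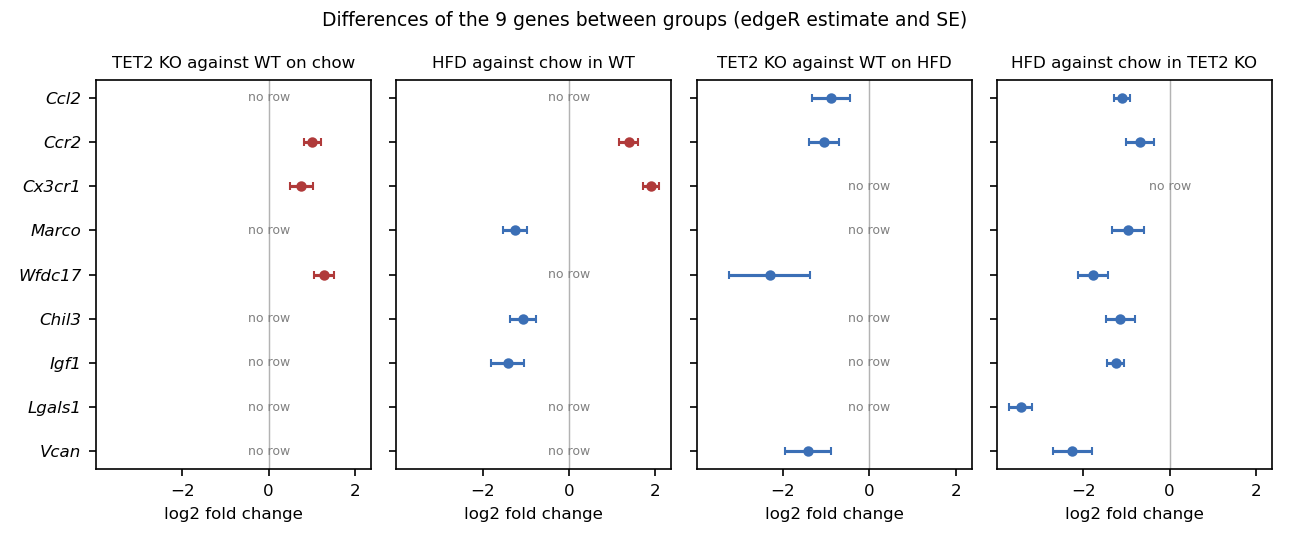
Points show the log2 fold change (horizontal axis) of each gene in the 4 comparisons and bars its SE from edgeR, with red for higher and blue for lower in the first-named group. The listed members were all higher in TET2 KO on chow (0.75 to 1.28), all lower in TET2 KO on HFD (-2.31 to -0.88) and all lower on HFD in TET2 KO (-3.45 to -0.69), while in WT Cx3cr1 and Ccr2 were higher and Marco, Igf1 and Chil3 lower on HFD.

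The comparison of TET2 KO with WT on chow asks what loss of the enzyme from the endothelium goes with in these cells. It listed 3 members, the receptors Ccr2 and Cx3cr1 and the secreted Wfdc17, all higher in TET2 KO. In edgeR's quasi-likelihood test all 3 passed an unadjusted p under 0.05, as did 76.6% of the 1298 genes listed, 30.6% as higher and 46% as lower. Since the listing used this contrast, nothing is read from that count. The groups did not overlap for all 3, against 74.7% of the listed genes. The median log2 fold change was 1.01 for these members and -0.37 for all listed genes. None of them passed a Benjamini-Hochberg adjusted p under 0.05 over the listed genes, nor did any other gene of this table (0%).

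The effect of HFD in WT was listed for 5 members. Cx3cr1 and Ccr2 were higher on HFD and Marco, Igf1 and Chil3 lower, and all 5 passed the unadjusted test, beside 91.6% of the 7330 genes listed, 42.4% as higher and 49.2% as lower. All 5 had groups without overlap, beside 86.5%, and all 5 passed the edgeR test after Benjamini-Hochberg adjustment, beside 86.8%. The receptors of blood monocytes and the genes of alveolar macrophages thus differed in direction within one comparison. The median over the 5 was -1.07, beside -0.32 for all listed genes.

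Between TET2 KO and WT on HFD, 4 members were listed, Ccr2, Ccl2, Vcan and Wfdc17, all lower in TET2 KO. Of these, 3 passed the unadjusted test, beside 82.3% of the 3939 listed genes 39.1% as lower and 43.1% as higher, and Ccl2 did not. Only Ccr2 had groups without overlap, beside 74.7% of listed genes. None passed the adjusted edgeR test with Benjamini-Hochberg adjustment, which 27.5% of listed genes did. Without the third WT HFD library 0 of the 4 members passed the unadjusted test, beside 2201 of the 3939 listed genes. The median was -1.24 for the members and 0.33 for all listed genes.

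**Figure D3:**
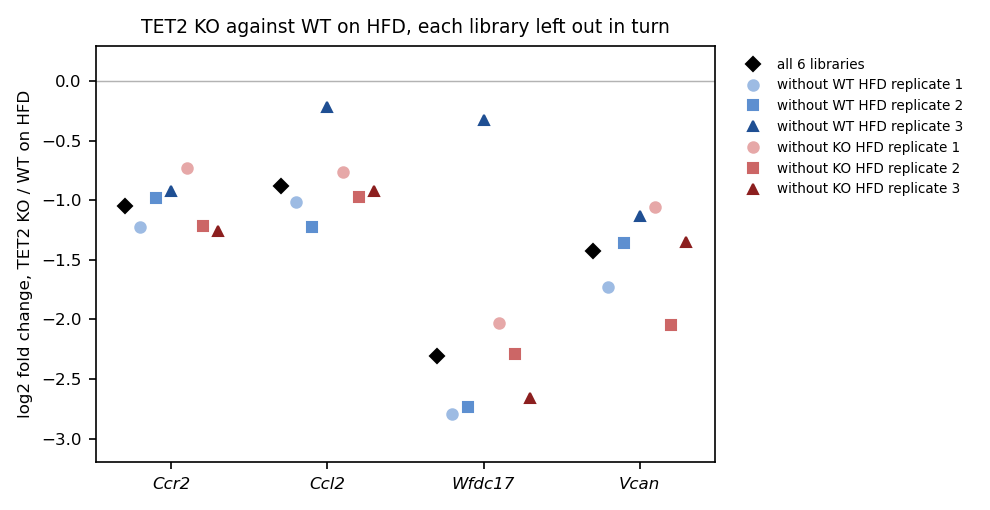
The vertical axis gives the log2 fold change of TET2 KO against WT on HFD for 4 genes, with all 6 libraries (diamond) and after omission of single libraries. Leaving out the third WT HFD library moved Wfdc17 from -2.31 to -0.33 and Ccl2 from -0.88 to -0.22. It moved Ccr2 from -1.05 to -0.92 and Vcan from -1.43 to -1.13, and none of the 4 then passed the unadjusted test. Over all single omissions Ccr2 ranged from -1.25 to -0.73 and Vcan from -2.05 to -1.05.

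The effect of HFD in TET2 KO was listed for 8 members, every one but Cx3cr1, and all 8 were lower on HFD. In the unadjusted test 7 passed, beside 77% of the 1628 listed genes 47.7% as lower and 29.3% as higher, and Ccr2 did not. The groups were separate for 6 members, beside 72.6%, the exceptions being Marco and Chil3. Lgals1 alone of the members passed the edgeR test after Benjamini-Hochberg adjustment, as 1 of 2 genes in the whole table (0.123%). The median was -1.20 for the members and -0.51 for all listed genes. With TMM factors over the listed genes in place of the size factors, the median of all listed genes moved by 0.25 towards 0 and each member moved with it, Marco to -0.75 and Ccr2 to -0.47.

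For the 5 members with values in all 12 libraries, the change with HFD in TET2 KO minus that in WT was estimated in a single fit. It was -2.06 for Ccr2 (SE 0.46, 95% interval -3.07 to -1.06) and -3.59 for Wfdc17 (SE 1.06, -5.90 to -1.28), with estimated changes of opposite sign in the 2 genotypes. Without the third WT HFD library, the change of Wfdc17 with HFD in WT went from 1.81 (0.18 to 3.44) to -0.17 (-0.98 to 0.65). The difference between genotypes in the change of Wfdc17 was then -1.61. For Igf1 it was 0.18 (-0.84 to 1.20), for Marco 0.28 (-0.85 to 1.42) and for Chil3 -0.07 (-1.15 to 1.00). The 2 members that passed an unadjusted p under 0.05 are to be read beside 56.4% of the 975 genes fitted, and 55.5% after adjustment, all of which were listed for at least 1 of the contrasts that make up this term. In the same fit the genotype contrasts that were not listed came to -0.58 (-1.30 to 0.13) on chow and -0.40 (-1.13 to 0.32) on HFD for Igf1, 0.12 (-0.68 to 0.93) and 0.41 (-0.40 to 1.22) for Marco, and 0.06 (-0.70 to 0.82) and -0.01 (-0.77 to 0.75) for Chil3. Relative to its SE, the largest unlisted difference in this fit was that of Wfdc17 with HFD in WT (1.81, SE 0.75), followed by Igf1 on chow (-0.58, SE 0.33). The smallest listed ones in it were Wfdc17 between genotypes on chow (1.28, SE 0.74, -0.33 to 2.89) and Ccr2 with HFD in TET2 KO (-0.68, SE 0.32). In the fits of single comparisons the smallest listed ones were Ccr2 with HFD in TET2 KO (-0.69, SE 0.33) and Ccl2 on HFD (-0.88, SE 0.44).

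Other genes of alveolar macrophages moved with Marco and Chil3. Of 12 such genes, 8 were listed for HFD against chow in WT (Siglecf, Mrc1, Ear1, Krt79, Plet1, Ctsk, Cidec and Atp6v0d2). All were lower and past the unadjusted test, beside 91.6% of all listed genes, 49.2% as lower. Their median was -1.04, beside -0.32 for all listed genes. Ctsk, a lysosomal protease, was at -1.67 (SE 0.32), Krt79 at -1.26 (SE 0.29), Cidec, a lipid droplet protein, at -1.15 (SE 0.25) and Mrc1, the mannose receptor, at -1.05 (SE 0.29). In TET2 KO the same 8 genes were listed and lower on HFD, with a median of -0.87 beside -0.51. Of these 7 were past the test, beside 77% of all listed genes, 47.7% as lower. Their summed level was 575 to 1065 FPKM in WT chow and 263 to 471 FPKM in WT HFD, and 459 to 802 FPKM in TET2 KO chow and 289 to 528 FPKM in TET2 KO HFD. In these bulk libraries fewer cells of a type and less RNA per cell cannot be told apart.

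The 8 genes of this sum were listed as lower on HFD in both genotypes, as were Chil3, Marco and Igf1, and the rest of the 12 were not listed. Ratios to the sum are thus not independent of the listing and are given as a description. Relative to this sum, the members of the alveolar macrophage differed little between diets in WT. Chil3 stood at 284% ± 40.2 of the summed level in WT chow and 287% ± 3.74 in WT HFD (SD, n = 3). Marco stood at 4.30% ± 0.691 and 4.03% ± 0.759. The relative levels of both genes in WT thus overlapped between diets, where their FPKM did not. In TET2 KO the ratio of Chil3 was 340% ± 11.1 on chow and 271% ± 16.8 on HFD, with no overlap, and that of Marco 5.59% ± 1.19 and 4.78% ± 1.05, with overlap. Igf1 stood at 0.160% ± 0.0122 in WT chow, 0.129% ± 0.0219 in TET2 KO chow, 0.125% ± 0.0205 in WT HFD and 0.0984% ± 0.0235 in TET2 KO HFD.

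**Figure D4:**
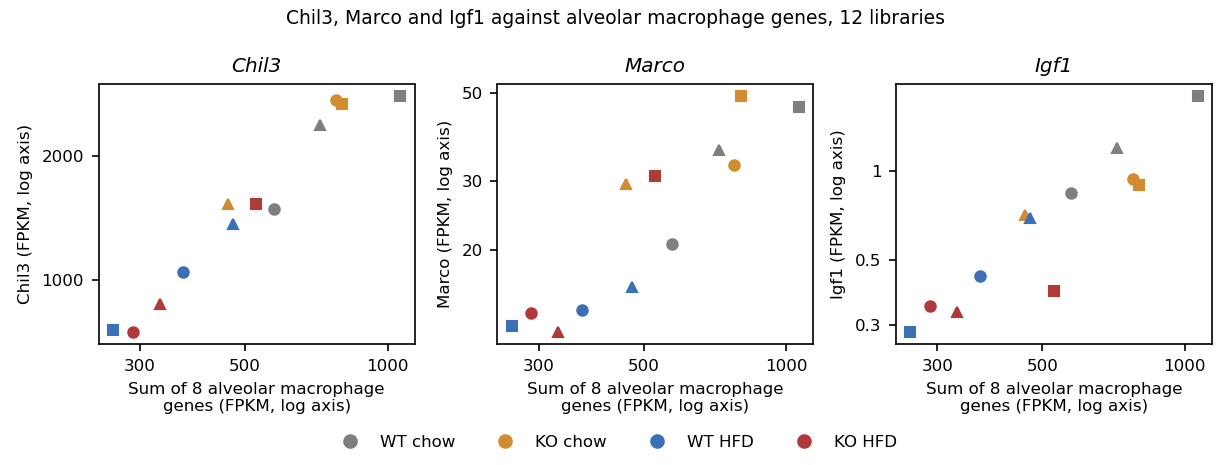
Chil3, Marco and Igf1 (vertical axes, FPKM, log scale) are plotted against the summed FPKM of 8 alveolar macrophage genes (horizontal axes, log scale) in the 12 libraries, coloured by group and with the replicate symbols used above. Chil3 tracks the sum most closely (r = 0.98 on the log scale, beside 0.91 for Marco and 0.92 for Igf1), and HFD libraries of both genotypes lie towards the lower left. All these genes were listed as lower on HFD in both genotypes, so r is not independent of the listing.

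Across the 12 libraries, Pearson's r of log2(FPKM + 0.1) between members was highest among Chil3, Marco and Igf1. It was 0.93 between Chil3 and Marco, 0.89 between Chil3 and Igf1 and 0.79 between Marco and Igf1, and of the deviations from the group means it was 0.85, 0.80 and 0.62. Ccr2 and Wfdc17 had r = 0.66 (0.49 of the deviations), whereas Ccr2 had r = -0.09 with Chil3 and -0.16 with Marco. Wfdc17 also had r = 0.35 with Chil3 and 0.31 with Igf1, and of the deviations 0.38 and 0.51, so that it was no closer to Ccr2 than to Igf1 within groups. These values describe 12 libraries that share groups and depth, and Chil3, Marco and Igf1 were all listed as lower on HFD in both genotypes. Among 704 genes with a mean of at least 1 FPKM and values in every library, those most like Chil3 were Kcnn3 (r = 0.99), Fam89a (0.99) and Plet1 (0.98), and those most like Marco were Best1 (0.97), Rufy4 (0.96) and 5730507C01Rik (0.96). Those most like Igf1 were Tanc2, Hr and Adamts2 (0.95 each). The genes closest to Ccr2 were Vsir (0.97), an immune checkpoint ligand of myeloid cells, Sh3bp1 (0.93) and Mmgt2 (0.92). Wfdc17 had no gene as close, the nearest being Ighv12-3 (0.86), Galnt7 (0.83) and Abca9 (0.81).

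Genes of blood monocytes were higher on HFD in WT together with Ccr2 and Cx3cr1. Of 8 non-classical monocyte genes 7 were listed, all higher and all past the unadjusted test (91.6% of all listed genes passed it, 42.4% as higher), with a median of 1.10 beside -0.32 for all listed genes. Eno3 was at 1.57 (SE 0.16), Cd300e at 1.27 (SE 0.26), Treml4 at 1.14 (SE 0.22) and Spn, which encodes CD43, at 1.10 (SE 0.14). Of 10 classical monocyte genes 6 were listed, all higher, 5 of them past the test, with a median of 0.90. Without the third WT HFD library 6 and 4 passed, beside 5633 of the 7330 listed genes. Plac8 was at 1.15 (SE 0.27), Ms4a4c at 0.92 (SE 0.20) and Ly6c2, the antigen Ly6C, at 0.87 (SE 0.21). Their summed levels were 500 to 596 FPKM on chow and 738 to 1155 FPKM on HFD for the former list, and 117 to 217 and 245 to 353 FPKM for the latter. In the other comparisons few of these genes were listed, at most 2 of the classical and 1 of the non-classical list.

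F13a1, the coagulation factor XIII A chain that marks classical monocytes, was listed in all 4 comparisons with the same signs as Ccr2. It was at 0.93 (SE 0.30) in TET2 KO against WT on chow, 0.79 (SE 0.28) with HFD in WT, -0.85 (SE 0.29) in TET2 KO against WT on HFD and -0.99 (SE 0.31) with HFD in TET2 KO. Without the third WT HFD library it was at 0.68 with HFD in WT and -0.73 between genotypes on HFD and passed in neither. Its r with Ccr2 over the 12 libraries was 0.91, which is not independent of the listing of both genes in all 4 comparisons. The level of Ccr2 was 111% ± 17.6 of that of F13a1 in WT chow, 115% ± 15.9 in TET2 KO chow, 160% ± 6.58 in WT HFD and 138% ± 30.1 in TET2 KO HFD. The ratios did not overlap between diets in WT (96.0% to 130% on chow and 152% to 164% on HFD), and they overlapped between diets in TET2 KO and between genotypes on either diet.

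Interstitial macrophage genes did not move as a set. With HFD in WT, Csf1r, the receptor of macrophage colony-stimulating factor that monocytes also carry, was higher (1.21, SE 0.24) and Mertk, a receptor for the uptake of dying cells, lower (-0.75, SE 0.29). With HFD in TET2 KO Mertk was again lower (-0.72, SE 0.25), as the only one of 12 listed, and the genotypes on chow had none. Over the 12 libraries Mertk had r = 0.94 with Chil3, 0.88 with Marco and 0.92 with Igf1. Between TET2 KO and WT on HFD only C1qa, C1qb and C1qc were listed, at -2.56, -2.98 and -3.08 with SE of 1.11, 1.23 and 1.27. Their summed level was 12.4, 48.9 and 544 FPKM in the WT HFD group from lowest to highest and 18.8 to 34.9 FPKM in TET2 KO HFD, and the 544 FPKM are those of the third WT HFD library. Without it the differences were -0.24, -0.10 and -0.0040, and none passed. Of 90 listed marker and pathway genes with values in WT HFD, 4 had a library at 1 FPKM or more and over 3 times the next. These were C1qa, C1qb, C1qc and the scavenger receptor Msr1 (18.0 against 2.55 FPKM), each in the third library, where Wfdc17 and Ccl2 also peaked. Below 1 FPKM, Pdgfra was at 0.629 FPKM in the first WT HFD library against 0.163 FPKM in the next.

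Chemokines and adhesion genes of monocyte recruitment were listed mainly with HFD in TET2 KO, 7 of 17. The chemokines Ccl3 (-1.20, SE 0.28), Ccl4 (-0.99, SE 0.37) and Ccl7 (-0.93, SE 0.24) were lower beside Ccl2, as was the decoy receptor Ackr2 (-1.07, SE 0.45), and Vcam1, which holds monocytes to the vessel wall, was higher (1.19, SE 0.48). Cx3cl1, the ligand of CX3CR1, was at -0.65 (SE 0.29) and Ccr1 at -0.57 (SE 0.25), and neither passed. The median of the 7 was -0.93, beside -0.51 for all listed genes. With HFD in WT 3 of the 17 were listed, all higher, the growth factor Csf1 (0.91, SE 0.28), Ccl5 (0.98, SE 0.17) and Ackr2 (1.25, SE 0.50). On chow Ccl5 was higher in TET2 KO (0.54, SE 0.16), whereas Ccl4 (0.84, SE 0.44) and Ackr2 (1.24, SE 0.55) did not pass, and Ccl8 was lower (-1.97, SE 0.73) at a low level of 0.0989 to 1.19 FPKM in TET2 KO and 1.20 to 4.10 FPKM in WT. On HFD Ackr2 was lower in TET2 KO (-1.07, SE 0.37).

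Around Igf1, 7 of 14 genes of its pathway were listed with HFD in WT, 5 past the test as higher and 1 as lower. Of all listed genes 42.4% passed as higher and 49.2% as lower. The binding protein Igfbp2 was at 3.17 (SE 0.46), Igfbp4 at 1.09 (SE 0.24) and the adaptor Irs1 at 0.95 (SE 0.17), while Igf1 itself was lower. On HFD Igfbp2 (-2.23, SE 0.38) and Igfbp4 (-0.70, SE 0.23) were lower and Irs2 (0.64, SE 0.22) higher in TET2 KO. Neither of the 2 genes listed on chow nor the 1 listed with HFD in TET2 KO passed, which 76.6% and 77% of all listed genes did. Of the other scavenger receptors, Cd36 (1.32, SE 0.24) and Scarf1 (1.37, SE 0.27) were higher on HFD in WT, opposite to Marco, and both were lower in TET2 KO on HFD (-0.81, SE 0.17 and -0.84, SE 0.19). Endothelial cells express both. Msr1, at 2.11 (SE 0.86) with HFD in WT, was at 0.36 (SE 0.30) without the third WT HFD library and did not pass. In all, 7 of 11 scavenger receptor genes were listed with HFD in WT, 5 past the test as higher, beside 42.4% of all listed genes. In TET2 KO against WT on HFD 5 were listed, 4 past it as lower, beside 39.1% of all listed genes. On chow 2 were listed and with HFD in TET2 KO 3.

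Among relatives of the remaining members, Lgals3bp, a galectin-binding protein, was higher with HFD in WT (1.28, SE 0.31) and lower in TET2 KO on HFD (-1.01, SE 0.38), as was Lgals9 (0.73, SE 0.16 and -0.47, SE 0.15). Without the third WT HFD library the latter value of Lgals3bp was -0.62 (SE 0.34) and did not pass. Lgals3, the galectin of macrophages, was lower with HFD in WT (-0.67, SE 0.27). None of the 7 genes of this list was listed with HFD in TET2 KO, where Lgals1 was. In the WAP-domain family Wfdc1 was at 2.23 (SE 0.27) with HFD in WT and -1.34 (SE 0.23) in TET2 KO on HFD, and Wfdc21 was lower on HFD in both genotypes (-1.81, SE 0.38 in WT and -1.57, SE 0.24 in TET2 KO). Of 5 genes of the chitinase family, Chia1 was higher with HFD in WT (1.17, SE 0.49, but 0.95 and not past the test without the third WT HFD library), and Chid1 was lower in both comparisons that include TET2 KO HFD (-0.55, SE 0.13 and -0.58, SE 0.19). Of the genes that make or cleave hyaluronan and versican, Has1 was lower with HFD in WT (-2.11, SE 0.31) and higher in TET2 KO on HFD (1.09, SE 0.44), and Adamts4, a protease that cuts versican, was lower with HFD in WT (-1.87, SE 0.37) and in TET2 KO on chow (-1.48, SE 0.24). With HFD in TET2 KO Adamts4 was at 1.78 (SE 0.74), on levels of 0.962, 0.323 and 0.0873 FPKM beside 0.120 to 0.146 FPKM on chow, so the groups overlapped and the first library was the highest. Of these 11 genes 5 were listed with HFD in WT, 4 in TET2 KO against WT on HFD, 3 with HFD in TET2 KO and 1 on chow.

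Markers of the other cells of the preparation moved as well, and their counts stand beside the shares of all listed genes past the test, 76.6% for the genotypes on chow, 91.6% for HFD in WT, 82.3% for the genotypes on HFD and 77% for HFD in TET2 KO. All 10 endothelial genes were listed and higher with HFD in WT, with summed levels of 243 to 647 FPKM on chow and 729 to 1259 FPKM on HFD and a median of 1.47, and 7 of 10 were listed as lower in TET2 KO on HFD, 6 past the test (346 to 641 beside 668 to 1146 FPKM). All 6 NK cell genes were higher with HFD in WT, at summed levels of 17.4 to 31.7 and 58.1 to 110 FPKM. T cell genes were listed as higher for 4 of 7 in TET2 KO on chow, 3 past the test (44.4 to 63.7 FPKM in WT and 73.5 to 93.2 FPKM in TET2 KO). With HFD in TET2 KO 2 of the 7 were listed, both lower. Fibroblast genes were lower on chow in TET2 KO for 4 of 8 and mesothelial genes for 3 of 5, and with HFD in TET2 KO 2 of 8 and 3 of 5 were higher. Krt19, counted with the mesothelial genes but also made by airway epithelium, was lower with HFD in WT (-0.97, SE 0.24) and at -0.85 (SE 0.37) in TET2 KO, where it did not pass. Epcam of epithelial cells was lower with HFD in both genotypes (-0.70, SE 0.22 in WT and -0.60, SE 0.21 in TET2 KO). Over the 12 libraries r with the summed level of Krt19 and Msln was 0.96 for Chil3, 0.89 for Marco and 0.85 for Igf1. Krt19 made up nearly all of this sum, 78.7 of 80.2 FPKM in the first WT chow library. Msln, Upk3b and Lrrn4 were higher with HFD in TET2 KO (2.43, 2.04 and 1.77), where Chil3, Marco and Igf1 were lower. With Epcam, the 1 epithelial gene at hand, r was 0.74, 0.58 and 0.90. In the neutrophil list only Retnlg was listed, lower with HFD in WT (-1.47, SE 0.50), and B cell and erythroid lists had no listed gene. Of the lung epithelial list, Scgb1a1 of club cells alone reached 4166 to 5481 FPKM in WT chow, above Chil3, and was lower in TET2 KO on chow (-0.90, SE 0.18). Of the dendritic cell list, Zbtb46 was higher with HFD in WT (1.27, SE 0.37) and Clec9a lower in TET2 KO on HFD (-0.78, SE 0.22). The part of these shifts in the differences of the 9 members was not tested.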

How the data were processed

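RNA of CD31+ lung cells from 12 mice (3 in each of 4 groups, taken from the sample labels) was sequenced by the authors, aligned with HISAT2 to mm10 and counted with featureCounts (versions and strand setting are not given in the sources used here). The authors deposited 4 tables with raw counts per gene, a normalized signal (the count divided by a DESeq2 size factor) and FPKM. Each table lists only genes with the authors' unadjusted p under 0.05. The authors' own fold changes and p-values were not used.

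Size factors and totals were recovered from the deposited columns; counts of the same library were equal between tables (0 mismatches). Differences were estimated with edgeR 4.0.16 (R 4.3.3, quasi-likelihood test, no covariate) on the listed genes with those size factors, and Benjamini-Hochberg adjustment runs over listed genes only. The change with HFD in TET2 KO minus that in WT was fitted on 975 genes with joint size factors. Gene lists, members and tests were chosen with earlier results of these data known. Named genes are the members, up to 4 listed genes per list and comparison with the largest change (mean normalized count of 50 or more), and the 3 genes most like each member. Ccl7, Cx3cl1 and Ccr1 with HFD in TET2 KO, F13a1 with HFD in WT, the ratios to marker genes and the check of libraries that stand apart were chosen after values were seen. The fits were tested on simulated data. Alternatives were DESeq2 1.42.0, TMM factors, library totals, a minimum mean of 10 counts, adjusted p, a replicate block, each library left out (for list genes the third WT HFD library, chosen after seeing the data), and a pseudocount of 1 in place of 0.1. Whether replicate numbers pair mice is not stated. The r of deviations between same-numbered libraries was -0.14 to 0.21, with 3 of 12 over 0.1. Between different-numbered libraries it was -0.42 to 0.37, with 8 of 24 over 0.1. Promoters are from RefSeq (GRCm38.p6). Python 3.11.15 made the summaries. Libraries are from separate mice, and intervals do not cover choices made by the listing.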

Additional observations from a re-analysis of the deposited data

Results flagged for a closer look

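Ccr2 and Wfdc17 differed between genotypes in their change with HFD by the interaction term of edgeR's quasi-likelihood fit over 12 libraries, at an unadjusted p under 0.05. The change in TET2 KO minus that in WT was -2.06 for Ccr2 and -3.59 for Wfdc17 on the log2 scale. For Ccr2 every library of the lower group lay below every library of the higher group within each diet and within each genotype. For Wfdc17 the value was -1.61 without the third WT HFD library, which alone of the WT HFD libraries lay above WT chow. Both genes were listed for contrasts that make up this term, as were all 975 genes fitted, of which 56.4% passed the same test, so the term is not independent of how the members were chosen.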

How the results depend on the processing

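At an adjusted p under 0.05 over the listed genes, with edgeR and Benjamini-Hochberg, the number of members called went from 3 to 0 for TET2 KO against WT on chow, from 3 to 0 on HFD and from 7 to 1 with HFD in TET2 KO; with HFD in WT it stayed at 5. As each library was left out, the members called numbered 2 to 3 for TET2 KO against WT on chow, 5 in every fit with HFD in WT, 0 to 3 for TET2 KO against WT on HFD (0 without the third WT HFD library and 1 without the third TET2 KO HFD library), 6 to 7 with HFD in TET2 KO and 2 for the change with HFD between genotypes. DESeq2, TMM factors, library totals and the count minimum left each of these numbers as it was, as did the adjusted p for the difference between genotypes in the change with HFD, an alternative chosen after seeing the data. When each library was left out, 483 to 806 of 1298 listed genes were called on chow (994 with all libraries) and 4647 to 5633 of 7330 with HFD in WT (6712). For the genotypes on HFD 1490 to 2238 of 3939 were called as each WT HFD library was left out (3241 with all libraries). Shares of the other fits are not given here, and nothing is read from the member counts.

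With the replicate number as a block, 3 members were called for the genotypes on chow, 5 with HFD in WT and 3 for the genotypes on HFD. Beside them 811 of 1298, 5606 of 7330 and 2923 of 3939 listed genes passed. In the other fits the only member call to change was that of Ccr2 with HFD in TET2 KO, which was gained. Nothing is read from these counts. Same-numbered libraries did not deviate together in all pairs, which cannot show whether they were handled together, and no pairing is stated. With the block, the genotype difference on HFD moved from -1.05 (SE 0.35) to -1.13 (SE 0.19) for Ccr2. For Vcan it moved from -1.43 (SE 0.53) to -1.54 (SE 0.26). It moved from -2.31 (SE 0.94) to -1.52 (SE 0.49) for Wfdc17 and from -0.88 (SE 0.44) to -0.69 (SE 0.35) for Ccl2.

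TMM factors shifted the median of all genes by 0.25 with HFD in TET2 KO and by -0.35 for the difference between genotypes in the change with HFD. That difference, near 0 for 3 members, turned in sign to -0.18 for Igf1 and -0.089 for Marco under TMM factors, and as each library was left out it ranged from -0.14 to 0.56 for Igf1, -0.25 to 0.54 for Marco and -0.45 to 0.16 for Chil3. Of the single-gene values under alternatives, 289 kept direction and side of the threshold, 27 lost the call, 3 gained it and 11 turned. The call of Cx3cr1 on chow was lost without the first or second WT chow or the third TET2 KO chow library, and that of Marco with HFD in TET2 KO without the second TET2 KO chow, the first TET2 KO HFD or the third TET2 KO HFD library. On HFD, the call of Ccr2 between genotypes was lost without the second or the third WT HFD library, that of Vcan also without the third TET2 KO HFD library, and that of Wfdc17 without the third WT HFD or any TET2 KO HFD library. The cause of these changes was not tested. Wfdc17 rested on 62 to 141 reads a library in TET2 KO HFD, the fewest of any member there.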
